A study of Mus musculus with 12 samples.

Results

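The Sprouty and Spred genes encode inhibitors of signalling through RAS, and their transcripts were measured here in mouse marrow cells carrying mutant SETBP1, mutant NRAS or both. The members were the rows of the count table with the symbols Spry1, Spry2, Spry4, Spred1, Spred2 and Spred3, which are 6 of the 19910 genes listed. They were chosen by name, as members of the 2 gene families, with earlier results of these data known. All 6 passed the filter on low counts that left 10993 genes for testing. Spry3, another Sprouty gene, was not analysed here.

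Sprouty and Spred proteins are feedback inhibitors: growth factor receptors activate RAS and the RAF, MEK and ERK kinases, ERK raises transcription of several of these genes, and the proteins made then restrain the same pathway. Sprouty proteins act between the receptor and RAF, while Spred proteins bring neurofibromin, which switches RAS off by promoting hydrolysis of its GTP, to the plasma membrane. In blood-forming cells the pathway lies downstream of receptors for growth factors and cytokines, and activating RAS mutations, which make RAS insensitive to neurofibromin, are found in myeloid leukemias.

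RNA was sequenced from marrow of female C57BL/6J mice of 6 to 10 weeks that had been transduced with retrovirus, with 3 libraries in each of 4 groups. One group received empty vectors, one SETBP1 D868N, one NRAS G12D, and one both mutants; the groups are called empty, SETBP1, NRAS and SETBP1+NRAS. NRAS is one of the RAS proteins, and SETBP1 binds DNA in the nucleus. All groups, the empty one included, had thus been exposed to virus, and the mutants were expressed from retroviral vectors in addition to the cells' own genes. The labels call the cells murine leukemia cells and do not say whether replicates were separate mice or cultures, whether cells were sorted, or what share carried a vector, so p-values measure the spread between these libraries, which may be technical. The comparisons ask what each mutant did to the feedback genes and whether SETBP1 changed their level in cells with mutant NRAS.

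Each library held 7085894 to 8864919 counts, and 11835 to 12800 genes were detected. Levels are given as normalised CPM (the count of a gene relative to the scaled total of its library), scaled with edgeR's TMM factors. Nras stood at 82.0 to 93.0 CPM in the 6 libraries without the NRAS vector and at 1423 to 1712 CPM in the 6 with it. Setbp1 had 0 counts in all empty and NRAS libraries, 5 to 7 in the SETBP1 libraries and 11 to 17 in the SETBP1+NRAS libraries. The introduced genes thus matched the labels. Setbp1 was at 0.59 to 0.91 CPM with SETBP1 and 1.48 to 2.18 CPM with both, so these groups differed in it, on few counts. What part this had in their comparison or in the interaction was not tested. SETBP1 replicate 3 stood apart, with a correlation of 0.9457 and 0.9525 (log2 CPM across genes) to the other libraries of its group against 0.9842 to 0.9909 for all other pairs within groups. Fold changes of Spry2, Spry4, Spred1 and Spred2 that rest on the SETBP1 group are therefore also given without it, while levels, shares and counts over gene lists include it. All 10 markers of marrow hematopoietic cells, among them Ptprc, Spi1 and Mpo, were detected in every group. Cd3e, Cd8a, Pax5 and the 4 adult globin genes had 0 counts throughout, but other markers of their lists were detected. With empty vectors the T cell marker Lck averaged 5.33 CPM, the B cell marker Cd79b 19.2 and the erythroid marker Klf1 6.89. Why single genes were at 0 was not tested.

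Spred1 and Spred2 were called higher with NRAS, and their promoters are shown because both rose in the same comparisons. The sequences are from RefSeq on GRCm38.p6, the same build as mm10, and run from 250 bases before to 50 bases after the annotated start, 5′ to 3′ along the gene. The Spred1 window is chr2:117120821-117121120 on the plus strand and the Spred2 window chr11:19924192-19924491, also on the plus strand. Capitals mark the 6-base core CGGAAG, or CTTCCG where it lies on the other strand, which is recognised by ETS transcription factors, a family that holds targets of ERK.
Spred1: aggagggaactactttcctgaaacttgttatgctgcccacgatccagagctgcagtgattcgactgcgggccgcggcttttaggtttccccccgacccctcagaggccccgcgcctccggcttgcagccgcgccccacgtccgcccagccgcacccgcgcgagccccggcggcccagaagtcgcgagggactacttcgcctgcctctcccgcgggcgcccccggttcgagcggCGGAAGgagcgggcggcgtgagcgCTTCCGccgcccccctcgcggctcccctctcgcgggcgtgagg
Spred2: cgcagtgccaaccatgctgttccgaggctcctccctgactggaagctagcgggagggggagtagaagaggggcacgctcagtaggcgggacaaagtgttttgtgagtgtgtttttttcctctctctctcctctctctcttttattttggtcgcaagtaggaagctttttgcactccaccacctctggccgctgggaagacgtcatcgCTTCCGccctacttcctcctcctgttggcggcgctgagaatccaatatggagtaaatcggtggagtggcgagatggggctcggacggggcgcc
The core CGGAAG occurred in the Spred1 window on the plus strand with its first base at -17 from the start and on the minus strand at 7, and in the Spred2 window on the minus strand at -43. This short core was chosen after the promoters had been read, and 16.9% of all 32851 promoters in the table held it on either strand. The core holds a CpG, and that share was not matched for G and C or CpG content. The short core was not in the Spry1, Spry2 or Spred3 windows. The Spred3 window, chr7:29168598-29168897 on the minus strand, lies inside the gene as annotated in GENCODE M21, whose 5′ end is at 29170411. Searches of it thus concern an internal start. The longer ETS core CCGGAAG (in 8.86% of all promoters), the AP-1 site TGANTCA (7.81%), the CRE TGACGTCA (1.79%) and the EGR site GCGGGGGCG (2.91%) were searched on both strands, and none was found in the promoters of Spry1, Spry2, Spred1, Spred2 and Spred3. The Spry4 promoter was not analysed here. The short ETS core lies within the longer one, so these searches overlap. The Spred1 promoter was 72.3% G or C with 40 CpG pairs and that of Spred2 57.0% with 17 CpG pairs, against medians of 52.7% and 7.0 over all promoters. A motif match describes the letters and was not tested as a binding site.

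With NRAS, 3 of the 6 genes rose against empty vectors: Spry4, Spred1 and Spred2. The other members, Spry1, Spry2 and Spred3, did not pass the test, and none of the 6 was called lower. In the empty libraries Spry4 had 4 to 12 counts and Spred3 3 to 13, so these genes could hardly have been called lower. Spry4 also passed the low-count filter through the libraries with mutant NRAS, and it is in the count and the median given here. Over all 10993 genes, 17.0% were called higher and 15.5% lower with NRAS against empty. The members' median log2 fold change was 0.79, beside -0.01 over all genes tested. The same 3 genes were called higher in SETBP1+NRAS against empty, where 20.8% of all genes were, and in SETBP1+NRAS against SETBP1, where 20.9% were; the first of these shares its control libraries with the NRAS comparison and the second its SETBP1+NRAS libraries with the first. In bulk RNA, fewer cells of a type and less RNA per cell cannot be told apart.

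**Figure D1:**
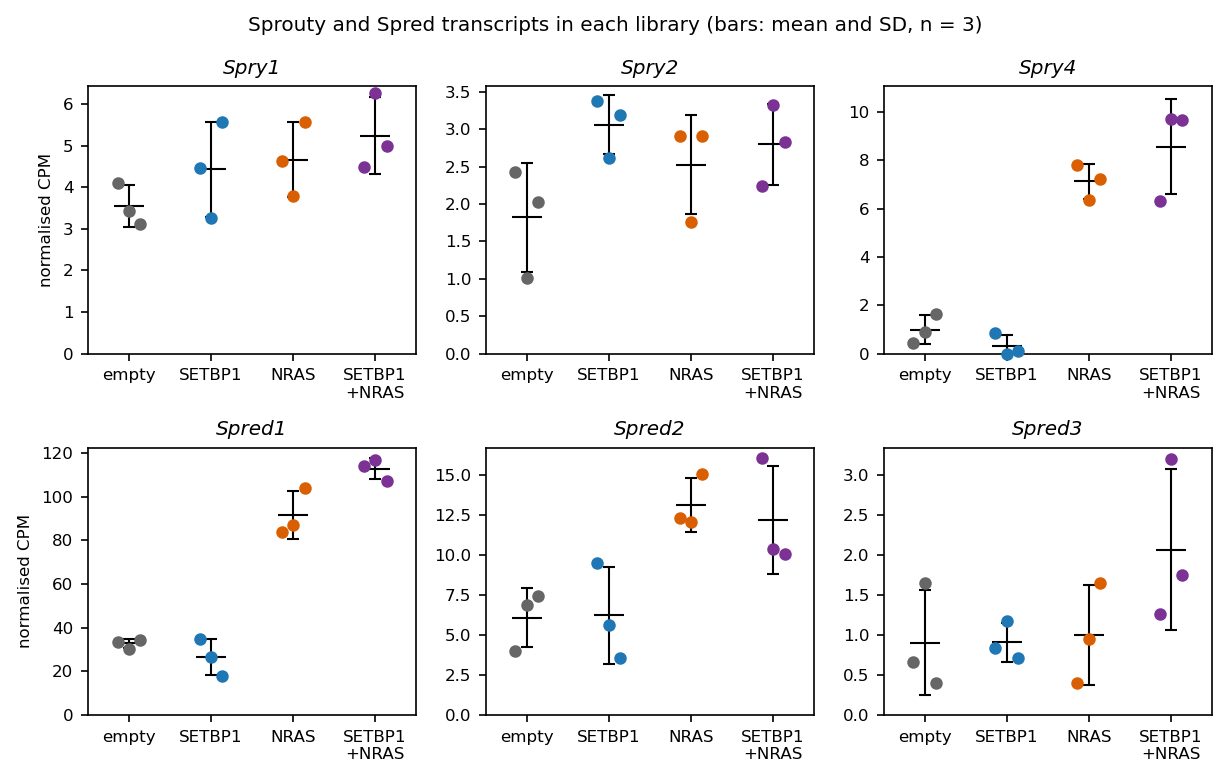
Normalised CPM (vertical axes, linear, 1 scale per gene) of each of the 6 Sprouty and Spred genes in the 12 libraries (points), by group, with the group mean and SD. The NRAS and SETBP1+NRAS libraries of Spry4 (6.29 to 9.73 CPM) and Spred1 (83.9 to 116.7 CPM) all lie above every library without mutant NRAS, while those of Spry1, Spry2 and Spred3 overlap with them.

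Spry4, a Sprouty protein that inhibits receptor-driven ERK activation, had the largest change of the 6. It stood at 0.44, 0.889 and 1.62 CPM in the empty libraries and at 7.80, 6.36 and 7.23 CPM in the NRAS libraries. The highest empty library thus lay well below the lowest NRAS library. The fold change was 7.33 (log2 2.88, SE 0.54, 95% interval 1.72 to 4.03, adjusted p 6.97e-04). In the SETBP1+NRAS libraries the level was 6.29, 9.73 and 9.69 CPM, 3.14 above empty on the log2 scale (SE 0.53, adjusted p 2.24e-04).

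Spry4 was scarce without mutant NRAS, and it passed the low-count filter through the libraries with it. Only 1 of 3 empty libraries and none of the 3 SETBP1 libraries reached the 1.287 CPM that corresponds to the minimum count, against all 6 with NRAS. The SETBP1 libraries held 7, 0 and 1 counts, or 8 in all (exact 95% Poisson interval 3.45 to 15.8), and the empty libraries 23 (14.6 to 34.5); these intervals cover counting error only. The fitted log2 difference between SETBP1+NRAS and SETBP1 was 4.65 (SE 0.74, adjusted p 3.66e-05), a value that depends on the handling of the near-zero SETBP1 group. It was 6.77 without SETBP1 replicate 1, which held 7 of those 8 counts, and 4.25 (adjusted p 3.62e-06) without replicate 3.

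Spred1, which binds neurofibromin and is lost in Legius syndrome, was the most abundant of the family. Its annotated gene spans chr2:117121374-117182279 in GENCODE M21 on GRCm38, with a start downstream of the RefSeq start used for the promoter. It stood at 33.4, 30.5 and 34.6 CPM in the empty libraries, with 240 to 302 counts behind each value. The NRAS libraries held 83.9, 87.1 and 104.1 CPM, and the SETBP1+NRAS libraries 114.3, 116.7 and 107.4 CPM. All 6 libraries with mutant NRAS were above all 6 without it. Against empty, Spred1 was 2.80-fold higher with NRAS (log2 1.48, SE 0.17, 95% interval 1.12 to 1.85, adjusted p 2.04e-05) and 3.44-fold higher with both mutants (log2 1.78, SE 0.17, adjusted p 2.45e-06). Against SETBP1, the group with both was 4.26-fold higher (log2 2.09, SE 0.17, adjusted p 7.74e-07), or 1.87 on the log2 scale (adjusted p 2.15e-10) without SETBP1 replicate 3.

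Spred2, a relative of Spred1 that also binds neurofibromin, was called higher in the same comparisons. It lies at chr11:19924375-20024026 on the plus strand. Its level was 3.98, 6.86 and 7.42 CPM with empty vectors and 12.3, 12.04 and 15.1 CPM with NRAS, so the groups did not overlap. The fold change was 2.17 (log2 1.12, SE 0.33, 95% interval 0.41 to 1.83, adjusted p 0.0179). With both mutants it was 16.1, 10.4 and 10.1 CPM, which was 2.01-fold above empty (log2 1.01, SE 0.33, adjusted p 0.0253) and 1.95-fold above SETBP1 (log2 0.96, SE 0.33, adjusted p 0.0300).

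These Spred2 calls rested on single libraries. NRAS against empty did not pass without empty replicate 1 (log2 0.87, adjusted p 0.0904) or NRAS replicate 3 (1.00, adjusted p 0.0686). SETBP1+NRAS against empty did not pass without empty replicate 1 (0.76, adjusted p 0.117), without SETBP1+NRAS replicate 1 (0.76, adjusted p 0.124), or when libraries were scaled by their total alone (0.89, adjusted p 0.0555). SETBP1+NRAS against SETBP1 did not pass without SETBP1 replicate 2 (adjusted p 0.0834), without SETBP1 replicate 3 (0.68, adjusted p 0.0510), without SETBP1+NRAS replicate 1 (0.72, adjusted p 0.139), with library totals (0.87, adjusted p 0.0565), or with only those 2 groups in the fit (0.95, adjusted p 0.0896). For Spry4 and Spred1, all 3 NRAS comparisons passed under all 22 alternatives run, with log2 fold changes for NRAS against empty of 2.50 to 3.41 and 1.38 to 1.55.

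**Figure D2:**
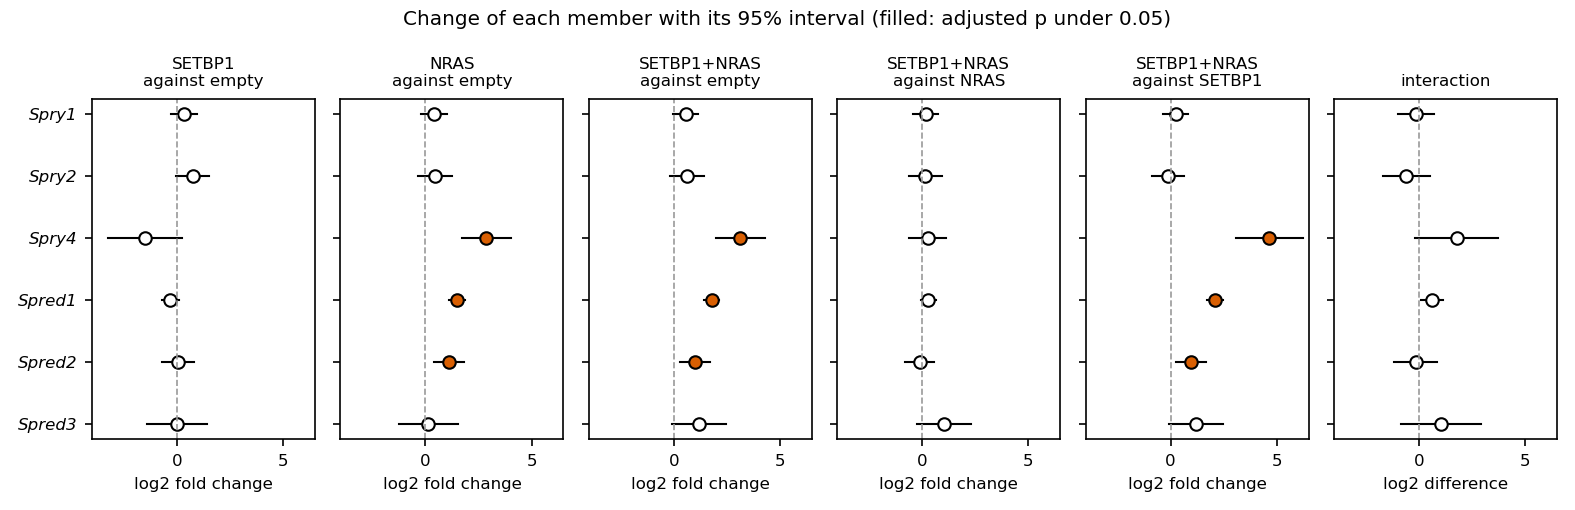
Log2 fold changes of the 6 genes (points, filled where the adjusted p was under 0.05) with 95% intervals, in each comparison. The changes with NRAS of Spry4 (2.88) and Spred1 (1.48) lie well above 0, while the intervals for SETBP1+NRAS against NRAS include 0 for all 6.

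Spry1 and Spry2, the other Sprouty genes, inhibitors of the same pathway, did not pass the test in any comparison. Spry1 (chr3:37639947-37644598, plus strand) ran from 3.10 to 4.09 CPM in the empty libraries, 3.27 to 5.56 in SETBP1, 3.79 to 5.58 in NRAS and 4.48 to 6.27 in SETBP1+NRAS. Its log2 fold change with NRAS was 0.39 (95% interval -0.22 to 1.00, adjusted p 0.312). Spry2 (chr14:105891947-105896819, minus strand) ran from 1.02 to 2.43, 2.61 to 3.37, 1.76 to 2.92 and 2.24 to 3.33 CPM in the same order of groups. It was 0.46 higher with NRAS on the log2 scale (95% interval -0.35 to 1.27, adjusted p 0.377). Its 8 to 28 counts a library limited the precision.

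Spred3, which lacks the functional KIT-binding region of its relatives, was the scarcest by counts over all libraries. It lies at chr7:29158829-29170411 on the minus strand. Its level ran from 0.405 to 1.65 CPM in the empty libraries, 0.710 to 1.18 in SETBP1, 0.396 to 1.65 in NRAS and 1.26 to 3.20 in SETBP1+NRAS, with 3 to 25 counts a library. Only 4 of 12 libraries reached 1.287 CPM, 2 of them with both mutants. The difference of SETBP1+NRAS from empty was 1.19 on the log2 scale (SE 0.59, 95% interval -0.09 to 2.46, adjusted p 0.121), and it passed only without empty replicate 2 (1.90, adjusted p 0.0448). Its exons share 202 bases with Ggn on the opposite strand, and whether counting used strand is not given in the sources used here, so reads of the 2 genes may not be separable. Spry1 exons share 710 bases with Gm42922 on the opposite strand. Ggn is among the genes listed with counts and Gm42922 is not, so the 2 overlaps may differ in their effect on the counts.

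SETBP1 alone changed none of the 6 genes past the threshold, where 14.9% of all genes were called and 8.31% were called higher; 3632 genes had an unadjusted p under 0.05 (edgeR) and DESeq2 called none of the 5 for which it gave an adjusted p (none for Spred3). Spry2 was 0.73 higher on the log2 scale (SE 0.37, 95% interval -0.06 to 1.53, adjusted p 0.175), or 0.70 (adjusted p 0.257) without SETBP1 replicate 3, and its 3 SETBP1 libraries lay above the 3 empty ones. Spred1 was 34.7, 26.8 and 18.0 CPM, with the lowest value in SETBP1 replicate 3, and differed by -0.31 from empty (SE 0.18, adjusted p 0.238), or -0.09 (adjusted p 0.672) without that library. Spry4 differed by -1.51 (SE 0.82, adjusted p 0.179), or -1.10 (adjusted p 0.362) without it. Without SETBP1 replicate 1 instead, both passed, at -3.63 for Spry4 (adjusted p 0.0155) and -0.55 for Spred1 (adjusted p 0.0211), so these 2 differences turned on which SETBP1 libraries entered.

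Adding SETBP1 to NRAS called none of the 6 genes, while 1.91% of all genes were called in that comparison and 1283 had an unadjusted p under 0.05 (edgeR). DESeq2 also called none, whereas limma-voom with sample quality weights and a fit to only the 2 groups each called Spred1 (log2 0.34 and 0.30, adjusted p 0.00678 and 0.0396). Those 2 fits called more genes in all, 1038 of 10993 and 883 of 10555, against 210 of 10993. In the edgeR fit to all groups Spred1 was 0.30 higher (95% interval -0.05 to 0.65, adjusted p 0.563), with its 3 SETBP1+NRAS libraries (107.4 to 116.7 CPM) above the 3 NRAS libraries (83.9 to 104.1 CPM). Spry4 was 0.27 higher (95% interval -0.61 to 1.14) and Spred2 differed by -0.11 (-0.78 to 0.56), with overlapping libraries. Spry1 (-0.42 to 0.76), Spry2 (-0.64 to 0.93) and Spred3 (-0.23 to 2.31) had intervals that also include 0, and none of these intervals shows that the genes were equal.

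Whether the SETBP1 change depended on NRAS was tested as an interaction, the SETBP1 change with NRAS minus that without it. None of the 6 genes passed, beside 0.0455% of all genes, 5 of 10993, with 1420 genes at an unadjusted p under 0.05 (edgeR). Spred1 had an interaction of 0.61 (SE 0.24, 95% interval 0.09 to 1.13, unadjusted p 0.0256, adjusted p 0.343), which was 0.39 (adjusted p 0.249) without SETBP1 replicate 3. For Spry4 it was 1.77 (SE 0.91, adjusted p 0.407), or 1.36 (adjusted p 0.462) without that library. DESeq2 gave an adjusted p for Spred1 alone among the 6 (0.244).

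Levels were set against each other per kilobase of merged exons, because longer transcripts draw more reads. Spred1 was first in every group, at 4.84 ± 0.31 normalised CPM per kb (SD, n = 3) with empty vectors, 3.90 ± 1.23 with SETBP1, 13.5 ± 1.60 with NRAS and 16.6 ± 0.71 with both. With empty vectors Spred2 (1.32), Spry1 (1.22) and Spry2 (0.874) followed, with overlapping libraries, and Spry4 (0.207) and Spred3 (0.146) came last. With NRAS the order after Spred1 was Spred2 (2.84), Spry1 (1.61), Spry4 (1.499) and Spry2 (1.21), then Spred3 (0.160); the libraries of Spry1, Spry4 and Spry2 overlapped. With SETBP1 the order was Spry1 (1.52), Spry2 (1.47) and Spred2 (1.35), again overlapping, then Spred3 (0.146) and Spry4 (0.067). With both mutants it was Spred2 (2.64), Spry1 (1.80), Spry4 (1.80), Spry2 (1.34) and Spred3 (0.333). Spry4 was thus in the lowest pair without mutant NRAS and among the libraries of Spry1 with it.

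The summed level of the 6 genes was 8.60 ± 0.52 normalised CPM per kb (SD, n = 3) in the empty group, 8.46 ± 1.92 in SETBP1, 20.8 ± 2.51 in NRAS and 24.5 ± 1.18 in SETBP1+NRAS. Spred1 made up 56.2% ± 1.12 of the sum in the empty group, 45.7% ± 6.94 in SETBP1 (48.1%, 51.1% and, in replicate 3, 37.9%), 64.9% ± 2.29 in NRAS and 67.8% ± 1.04 with both. The share of Spry4 was 2.37% with empty vectors, 0.67% with SETBP1, 7.24% with NRAS and 7.35% with both. The share of Spry2, whose level did not pass the test, was 10.1%, 17.8%, 5.79% and 5.45% in the same order, with 15.2%, 16.2% and, in replicate 3, 21.9% in the SETBP1 libraries. These sums are descriptions of the 6 genes and were given no test.

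**Figure D3:**
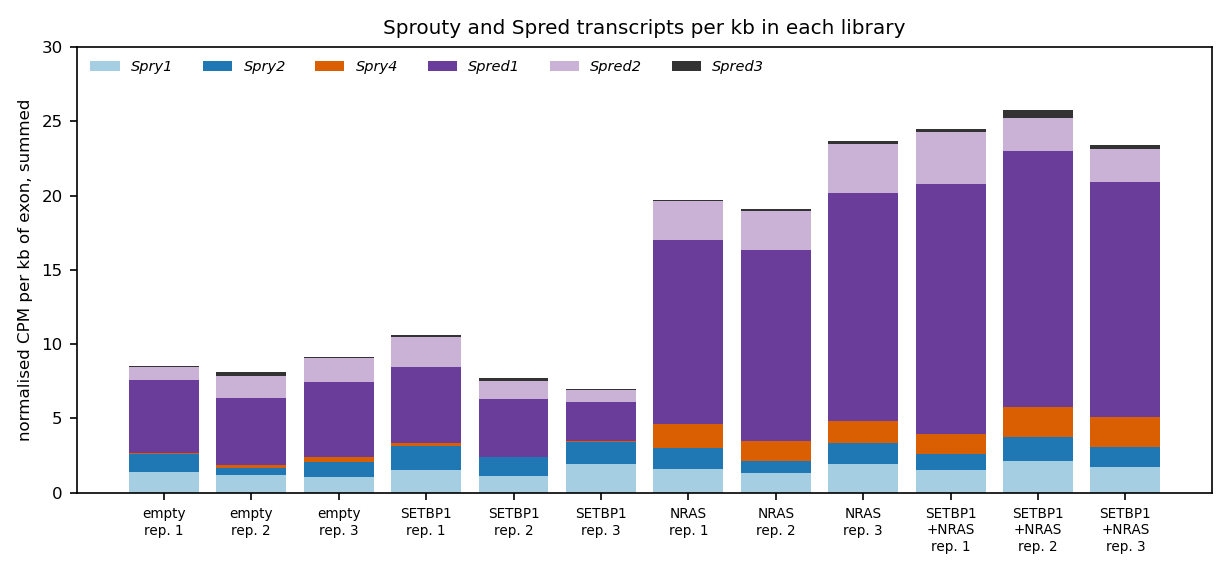
Stacked normalised CPM per kb of exon (vertical axis, from 0) of the 6 genes in each of the 12 libraries. The libraries with mutant NRAS stand at about the 20.8 (NRAS) and 24.5 (SETBP1+NRAS) group means, against 8.60 and 8.46 without it, and Spred1 is the largest part in all 12.

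The genes with the closest pattern over the 4 groups were found by the root mean square difference of centred group means of log2 CPM, among genes of at least 5 CPM. For Spry4 they were Plau (0.15), Dhrs9 (0.17) and Ank (0.17); for Spred1 Creb5 (0.041), Asph (0.047) and Zfp287 (0.075); for Spred2 they included Stk40 (0.026) and Ccr1 (0.033). The likeness is over 4 group means from 12 libraries, among 9357 candidate genes for Spry4. Plau encodes urokinase, a secreted protease, and Ccr1 a chemokine receptor of myeloid cells.

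Of 12 tested genes listed as other feedback inhibitors of the ERK pathway, 8 were called higher with NRAS, where 17.0% of all genes were, and none lower. Their median log2 fold change was 1.32, beside -0.01 over all genes. The list is broad: it holds Dusp10 and Dusp16, for which ERK is not the main target, and Dusp16 is among the 8 (1.36, adjusted p 0.0056). Dusp6, a phosphatase that switches ERK off, went from 85.0 to 391.3 CPM (2.20, adjusted p 3.18e-10). Dok2, an adaptor that recruits a GTPase-activating protein, rose by 2.31 (adjusted p 4.93e-08), Dusp4 by 2.22 (adjusted p 0.00401) and Errfi1, an inhibitor of EGF receptors, by 2.20 (adjusted p 4.90e-06). Dusp4 averaged 1.18 CPM with empty vectors and 0.50 with SETBP1, under the 1.287 CPM of the filter, so its fold change rests on few counts. With SETBP1 alone 2 of the 12 rose, Dusp1 and Dusp2, beside 8.31% of all genes. With SETBP1+NRAS 9 rose against empty and 7 against SETBP1, beside 20.8% and 20.9% of all genes. Between SETBP1+NRAS and NRAS, Dusp7, another ERK phosphatase, was the only one called (0.46, adjusted p 0.0344).

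Transcriptional outputs of ERK showed 14 of 16 higher and none lower with NRAS, beside 17.0% and 15.5% of all genes, with a median of 2.40. Etv1 and Egr3 averaged 0.58 and 0.09 CPM with empty vectors and 0.40 and 0.56 with SETBP1, under the 1.287 CPM of the filter. Etv4 averaged 0.47 CPM with empty vectors. Such scarce genes could hardly have been called lower against empty, and they are in the counts and the median. Fosl1, an AP-1 subunit, rose by 3.96, Egr1, an immediate-early transcription factor, by 3.94 and Phlda1 by 3.75 on the log2 scale (adjusted p 4.28e-09, 7.90e-08 and 3.66e-06). Egr3 had 2 counts in the empty group as a whole, with 2 of its 3 libraries at 0, and 199 in the NRAS group, so its fitted 6.47 rests on those 2 counts. With SETBP1 alone 6 of 16 rose, beside 8.31% of all genes. The 6 were Egr1, Fos, Myc, Ier2, Ier3 and Junb. The other 10, Fosl1 and Phlda1 among them, did not pass, and SETBP1 replicate 3 is in this count. SETBP1+NRAS had 15 higher against empty (20.8% of all genes), and 11 higher (20.9%) and 1 lower against SETBP1. The lower one was Fos, an AP-1 subunit (-0.61, adjusted p 0.0417), which averaged 42.9 CPM with SETBP1 and 28.2 with both. None of the 16 passed between SETBP1+NRAS and NRAS.

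**Figure D4:**
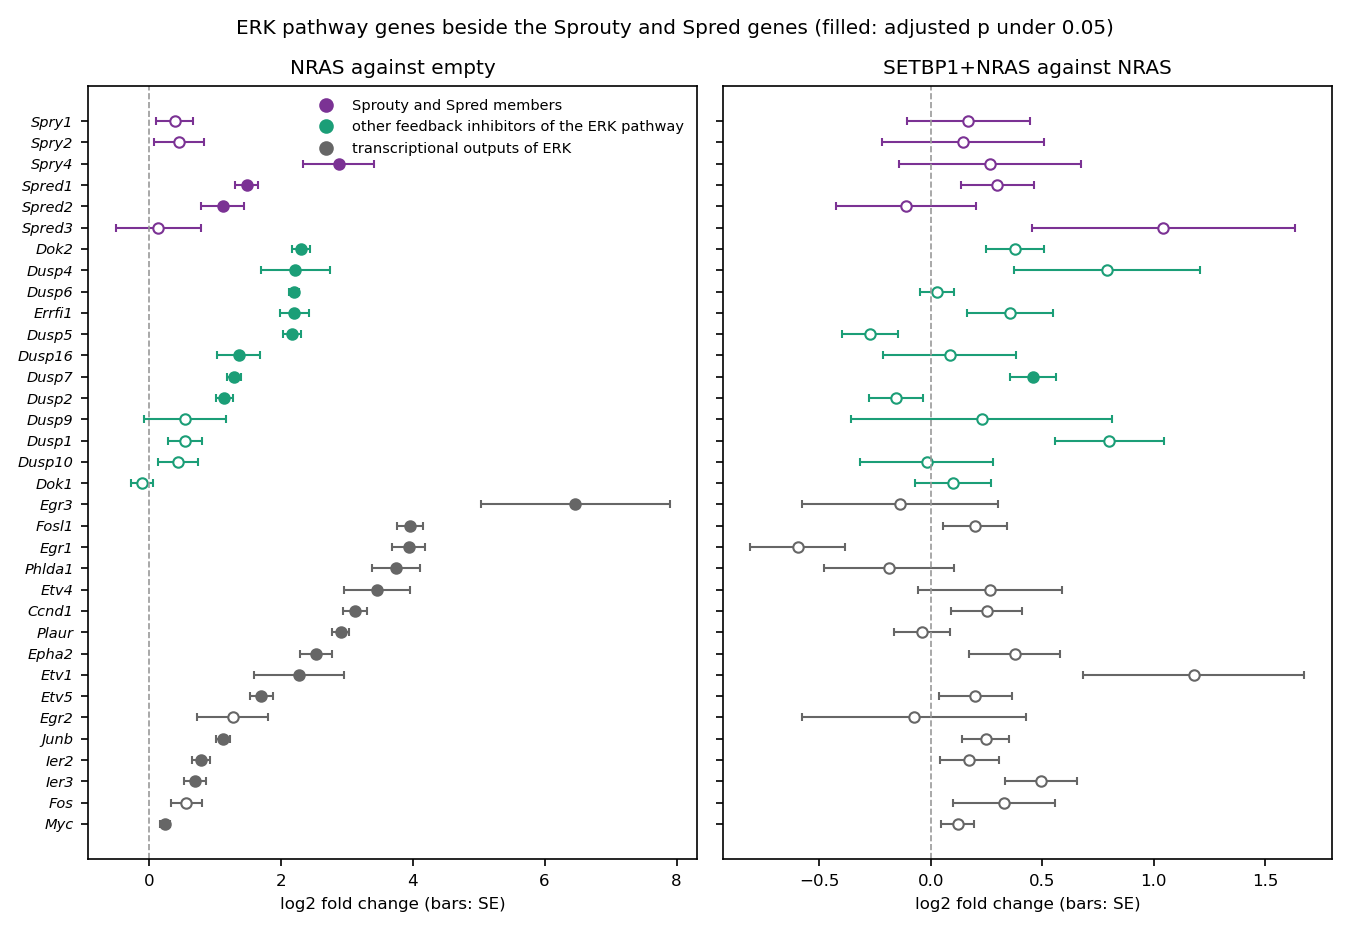
Log2 fold changes with SE (horizontal axes, filled where the adjusted p was under 0.05) of the 6 genes, genes listed as other feedback inhibitors and ERK outputs, for NRAS against empty (left) and SETBP1+NRAS against NRAS (right). On the left 3 of the 6 members, 8 of 12 other inhibitors and 14 of 16 outputs are filled and above 0, and on the right only Dusp7 is.

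Of the genes for proteins that Sprouty and Spred proteins bind or act on, 7 of 21 tested were higher and 1 lower with NRAS, beside 17.0% and 15.5% of all genes, with a median of 0.05. One of the 7 was Nras, the introduced gene (4.14). Hras, which encodes a RAS protein (0.56, adjusted p 0.0121), and Tesk1, a kinase (0.69, adjusted p 7.26e-04), also rose. Nf1, which encodes neurofibromin, differed by 0.0043 (adjusted p 0.990). Against NRAS alone, none of the 21 was called with both mutants. Among receptors upstream of RAS, 3 of 14 tested were higher and 3 lower with NRAS (median -0.25), near the 17.0% and 15.5% of all genes. Csf3r, the G-CSF receptor (-1.09, adjusted p 7.19e-06), Kit, the stem cell factor receptor (-1.34, adjusted p 0.00771), and Csf2ra (-0.69, adjusted p 0.0300) fell, and Igf1r rose (0.60, adjusted p 0.0188).

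Cell type markers moved with the groups in which Spry4, Spred1 and Spred2 rose, and their part in these results was not tested. The summed level of 10 hematopoietic markers was 34200 to 34910 CPM in the empty, 31870 to 46450 in the SETBP1, 12750 to 14320 in the NRAS and 10100 to 10540 in the SETBP1+NRAS libraries. That of 10 mast cell and basophil markers was 3144 to 3233, 1698 to 2433, 732.9 to 1241 and 409.7 to 595.5 CPM in the same order. Both sums were thus lower in all libraries with mutant NRAS. The hematopoietic list did not move as one: Mpo, Elane and Lyz2 held most of its sum and fell with NRAS, as did Kit, while Ptprc (0.40), Itgam (0.50) and Cd34 (1.18) rose on the log2 scale and 3 of the 10 did not pass. Of the 10 mast cell and basophil markers, 9 fell with NRAS. Late neutrophil markers (10 genes) were at 11190 to 12620 with empty vectors, 5136 to 7326 with SETBP1, 5868 to 7523 with NRAS and 1986 to 2489 with both. Monocyte markers (10 genes) were at 4398 to 4856, 5037 to 6714, 4055 to 4418 and 3871 to 4315, mostly Ly6c2. Neither list moved as one with NRAS, where 17.0% of all genes were called higher and 15.5% lower. Of the late neutrophil markers 2 rose (Mmp9 and Cxcr2), 5 fell and 3 did not pass. Of the monocyte markers Cd14 rose (3.44 on the log2 scale), 4 fell (Ccr2, Adgre1, C1qa and C1qb) and 5 did not pass. Megakaryocyte markers (6 genes) were at 212.2 to 250.6, 292.2 to 621.4, 139.8 to 200.3 and 241.8 to 269.5 CPM in the same order. Pf4 (161.5 CPM) and Ppbp (62.6 CPM) held most of the sum with both mutants. Against empty, Itga2b (-1.82), Gp1bb (-3.15), Gp9 (-3.16) and Vwf (-2.515) were called lower there on the log2 scale. Pf4 (1.07) was called higher, and Ppbp did not pass. With NRAS 3 of the 6 fell and none rose, beside 15.5% and 17.0% of all genes. Erythroid markers ran from 1.48 to 11.1 CPM over all libraries, with Hba-a1, Hba-a2, Hbb-bt and Hbb-bs at 0, and B cell markers from 7.94 to 21.6, with Pax5 at 0. Most of the B cell sum was Cd79b, at 19.2 CPM on average with empty vectors, 20.2 with SETBP1, 11.45 with NRAS and 7.57 with both. T cell markers ran from 4.72 to 6.22 with empty vectors, 4.33 to 5.32 with SETBP1, 9.38 to 10.7 with NRAS and 5.76 to 8.11 with both, with Cd3e and Cd8a at 0. Nearly all of the T cell sum was Lck, which averaged 5.33, 4.63, 10.04 and 6.82 CPM in that order. Cd3d averaged 0.20 CPM with empty vectors and 0.085 with NRAS. The sum of 10 stroma and endothelium markers was 101.6 to 118.1, 73.2 to 83.5, 177.2 to 282 and 180.5 to 200.4 CPM. Most of it was Pecam1, also made by leukocytes, which averaged 106.4, 77, 229.5 and 184.7 CPM, and Col3a1 and Cxcl12 were at 0.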

How the data were processed

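The deposited file, as the labels describe the samples, was 1 table of whole-number counts per gene for 12 libraries made with a SMART-Seq kit for very small amounts of RNA, and the authors had not normalised the counts. STAR, DESeq2 and mm10 are named in the submitters' processing notes; the counting tool, annotation and use of strand are not given in the sources used here. Genes were kept by filterByExpr (minimum count 10, minimum total 15), which left 10993 genes with 99.93% of the counts. Libraries were scaled by TMM, and edgeR 4.0.16 in R 4.3.3 fitted a quasi-likelihood F test to all 12 libraries as 4 group means. Two-sided p-values were corrected with the Benjamini-Hochberg method across the 10993 genes of a comparison, and calls were made at 0.05. Standard errors and 95% intervals came from the same fit.

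Gene positions and exon lengths were taken from GENCODE M21 on GRCm38, and promoters from RefSeq. The members, gene lists and settings were chosen with earlier results of these data known. Named genes were the 6 members, the 3 genes nearest in pattern to each member called, and Nras and Setbp1. Up to 4 called genes of each list with the largest change were also named, in NRAS against empty and in SETBP1+NRAS against NRAS. These needed a mean count of at least 50. Nf1, Fos, Etv1, Etv4, Myc, Junb, Ier2, Ier3, Dusp1, Dusp2, Dusp10, Dusp16, the single markers named and the genes at 0 fall outside the rule. They were chosen after their values were seen. Some genes that the rule names are not reported here. Alternatives were DESeq2 1.42.0, limma-voom (limma 3.58.1) with and without quality weights, 3 other scalings, 2 other filters, the replicate number as a block, only the groups compared, a threshold of 0.01, and each library left out. The scripts were tested on simulated data. No library was left out of the main test.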

Additional observations from a re-analysis of the deposited data

How the results depend on the processing

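Members called for SETBP1+NRAS against NRAS went from 0 to 1 (Spred1) with limma-voom quality weights and with only the groups compared, and for SETBP1 against empty ran from 0 to 2 when 1 library was left out. Fold changes near 0 changed sign: Spred3, SETBP1 against empty, was 0.0027 with DESeq2, 0.18 with limma-voom, 0.41 with quality weights and 5.3e-04 with RLE size factors; Spred2, SETBP1 against empty, was -0.0040 with limma-voom; the Spry1 interaction was 0.16 with quality weights. With 1 library left out, log2 changes ran from -0.40 to 0.34 (Spred2) and -0.33 to 0.73 (Spred3) for SETBP1 against empty, -0.43 to 0.86 for Spred3 with NRAS, -0.36 to 0.0054 (Spred2) and -0.055 to 0.28 (Spry2) for SETBP1+NRAS against NRAS, -0.27 to 0.0088 for Spry2 against SETBP1, and -0.45 to 0.29 (Spred2) and -0.33 to 0.047 (Spry1) for the interaction. The cause was not tested. Counts over all genes moved more: SETBP1+NRAS against NRAS called 210 genes, 379 with DESeq2, 1038 with quality weights, 883 with only those groups and 93 to 836 with 1 library left out; the interaction 5, 93 with DESeq2, 3 with limma-voom, 351 with quality weights, 14 with no low-count filter and 1 to 110 with 1 library left out; SETBP1 against empty 1633, 110 with only those groups and 390 to 3191 with 1 library left out; NRAS against empty 3576 and 5586 with quality weights; SETBP1+NRAS against SETBP1 4661 and 3083 with only those groups. A threshold of 0.01 lowers every count by construction. Scaling by library total moved the median of all genes to -0.10 for NRAS and -0.13 for SETBP1+NRAS against empty. Replicate numbers did not pair the libraries: 1 of 18 same-numbered pairs correlated above 0.1. In 4 of the 18 pairs the same-numbered library was the best match among the 3 of the other group. With the replicate block, members called were as without it, and Spred3, SETBP1 against empty, was 0.049.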
